A study of Homo sapiens with 48 samples.

Results

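The SLAM family is a set of immune cell surface receptors of the immunoglobulin superfamily, and 8 of its genes were followed here across 4 lymphoma cell lines: SLAMF1, SLAMF6, SLAMF7, SLAMF8, CD48, CD84, LY9 and CD244. They were taken by symbol from a table of 37706 genes, and each symbol matched 1 row. The family was selected on the measured CPM of its genes and their treatment effects, so levels and effects against the vehicle are given as descriptions and support nothing further. CPM are counts scaled to the size of the library. Of the 8 genes, 6 passed the filter on low counts that 17749 genes passed. SLAMF8 and CD244 did not pass, and counts over the genes that passed are never counts over the whole family.

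RNA was sequenced from 4 established lines of germinal centre B cell type diffuse large B cell lymphoma (GCB-DLBCL), namely SUDHL6, Oci-Ly7, Oci-Ly8 and Oci-Ly18. Each line was cultured for 6 days in 4 ways: with the vehicle DMSO; with EPZ-5676 against DOT1L (DOT1Li; 1 label field spells the agent EZP-5676); with GSK343 against EZH2 (EZH2i); and with the 2 agents together (Combo). Cells were reseeded with fresh agents at day 3. Each of the 16 groups has 3 libraries, and no label says that these came from separate cultures, so p-values measure the spread between libraries only. DOT1L methylates histone H3 along transcribed genes, while EZH2 is the methyltransferase of the Polycomb complex PRC2, which keeps genes silent. The series asked what blocking these enzymes, singly or jointly, does to the identity of the lymphoma cells. Both agents block enzymes rather than transcripts, so the DOT1L and EZH2 messages do not check the labels. They were read at 88.4 to 161 CPM and 191 to 315 CPM as group means. Averaged over lines, log2 fold changes against DMSO (± standard error) with DOT1Li, EZH2i and Combo were -0.15 ± 0.04, 0.02 ± 0.04 and -0.15 ± 0.04 for DOT1L. For EZH2 they were -0.09 ± 0.03, -0.08 ± 0.03 and -0.26 ± 0.03. All but the DOT1L effect of EZH2i had an adjusted p under 0.05 by edgeR's test. By line, the Combo effect on EZH2 ran from -0.57 ± 0.06 in Oci-Ly18 to 0.17 ± 0.06 in Oci-Ly7.

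Most SLAM receptors bind the same receptor on a neighbouring cell, so that both cells of a contact signal. The exceptions among these genes are CD48, a lipid-anchored ligand with no cytoplasmic tail, and CD244, its receptor on natural killer and T cells. Tyrosine motifs in the tails of SLAMF1, SLAMF6, SLAMF7, CD84, LY9 and CD244 recruit the small adaptors SAP (SH2D1A) or EAT-2 (SH2D1B), and SAP brings in the kinase FYN. In germinal centres, SLAM receptors and SAP are known for stabilising contacts between B cells and helper T cells.

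All 8 genes lie on chromosome 1, and positions are those of the deposited table on GRCh38. SLAMF8 lies apart from the others, at 159826811 to 159837492. The other 7 follow in the order SLAMF6 (160485030 to 160523262), CD84 (160541095 to 160579516), SLAMF1 (160608106 to 160647044), CD48 (160678746 to 160711831), SLAMF7 (160739057 to 160754821), LY9 (160796074 to 160828261) and CD244 (160830160 to 160862887). RefSeq promoter sequence (GRCh38.p14) was matched for 5 of the 8 genes. The 250 bases before the start are shown for the 3 members on which the results turn: SLAMF1, whose low level was called higher in 3 lines under the combination, CD48, whose direction depended on the line, and SLAMF6, which was called lower in 3 lines. Sequences run 5′ to 3′ toward the start of the gene, and capitals mark CpG dinucleotides, the sites of DNA methylation.
SLAMF1 (chr1:160647045-160647294, minus strand): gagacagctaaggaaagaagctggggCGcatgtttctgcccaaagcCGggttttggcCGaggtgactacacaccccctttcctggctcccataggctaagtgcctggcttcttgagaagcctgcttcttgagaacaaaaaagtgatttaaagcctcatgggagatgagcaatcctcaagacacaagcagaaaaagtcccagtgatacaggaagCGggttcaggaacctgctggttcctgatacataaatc
CD48 (chr1:160711823-160712072, minus strand): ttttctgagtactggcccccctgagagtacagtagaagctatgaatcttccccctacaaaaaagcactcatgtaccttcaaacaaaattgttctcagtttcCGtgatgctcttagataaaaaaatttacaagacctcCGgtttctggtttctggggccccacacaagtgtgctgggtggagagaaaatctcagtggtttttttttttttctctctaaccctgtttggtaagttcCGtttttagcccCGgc
SLAMF6 (chr1:160523256-160523505, minus strand): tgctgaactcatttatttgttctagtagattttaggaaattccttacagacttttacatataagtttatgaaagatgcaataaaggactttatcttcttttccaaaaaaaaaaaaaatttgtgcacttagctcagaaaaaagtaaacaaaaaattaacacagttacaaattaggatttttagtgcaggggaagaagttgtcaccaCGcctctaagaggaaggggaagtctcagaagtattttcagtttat
The SLAMF1 and CD48 windows each hold 4 CpG dinucleotides and the SLAMF6 window holds 1. Those of SLAMF8 and CD244, not shown, hold 5 and 1. All 5 windows were below the median of 11 over 35116 RefSeq promoters of this length, of which 38.1% hold 5 or fewer. Their GC content was 50% for SLAMF1, 43.2% for CD48, 30.8% for SLAMF6, 52.4% for SLAMF8 and 51.6% for CD244, against a median of 58%. The E-box CANNTG occurred in the windows of CD48, SLAMF8 and CD244 and in 61.8% of all promoters. CCCNNGGG, the core of the EBF1 site, occurred in that of CD244 alone among the 5 and in 17.1% of all. GAAANNGAA, the core of the interferon-stimulated response element, occurred in none of the 5 and in 6.88% of all. Both strands were searched. A match describes letters only, and no binding or methylation was measured in these libraries.

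The depth per library was 5174269 to 18845074 counts (median 14499938). The smallest total belongs to Oci-Ly8 DOT1Li replicate 3, and all others had at least 11391942. That library and Oci-Ly8 DMSO replicate 3 stood apart in the slope of log2 level on log2 exon length (0.7583 and 0.7231, against at least 0.822 in the other 46), so they held relatively fewer counts from long transcripts. Values without both libraries are given for the members' called effects in Oci-Ly8, for their called averages and for the differences between lines. All 6 B cell markers were read in every library, at 33 CPM or more, and summed to 1013 to 2647 CPM in DMSO and 1366 to 2273 CPM in Combo. The 5 germinal centre markers summed to 392 to 726 CPM in DMSO and 238 to 693 CPM in Combo, and the 6 plasma cell markers to 411 to 1850 CPM and 321 to 1394 CPM. The 7 T cell markers summed to 9.98 to 60.8 CPM in DMSO and 10.1 to 19.3 CPM in Combo, with CD2 under 1 CPM in every library. The 6 natural killer cell markers summed to 0.778 to 15.4 CPM in DMSO and 5.11 to 25.2 CPM in Combo, with KLRD1, GNLY and NCR1 under 1 CPM in every library. The 6 myeloid markers summed to 0.159 to 19.5 CPM in DMSO and 0.490 to 20.3 CPM in Combo, with CD14, CD68 and FCGR3A under 1 CPM in every library. All other T cell, natural killer cell and myeloid markers exceeded 1 CPM in at least 1 library. The highest values in a library included 58.0 CPM for TRAC and 12.9 CPM for CD3G among the T cell markers. They also included 22.5 CPM for NCAM1, 10.1 CPM for PRF1 and 6.84 CPM for NKG7 among the natural killer cell markers. Among the myeloid markers, LYZ reached 18.6 CPM and ITGAM 5.80 CPM. The part of these marker transcripts in the SLAM values was not tested. In bulk RNA, fewer cells that express a gene and less RNA per cell cannot be told apart.

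Levels in DMSO are compared between genes as CPM per kb of exon. In Oci-Ly7 the order was SLAMF6 at 40.4 ± 2.41 (SD, n = 3 here and for each value that follows), CD48 at 39.9 ± 2.32, CD84 at 8.33 ± 0.409, LY9 at 2.74 ± 0.101, SLAMF1 at 0.174 ± 0.0912 and SLAMF7 at 0.146 ± 0.0288. The SLAMF6 and CD48 values did not differ beyond their spread, nor did those of SLAMF1 and SLAMF7. In Oci-Ly8 CD48 came first at 17 ± 5.43, followed by SLAMF6 at 4.85 ± 0.743 and CD84 at 1.40 ± 0.374. In SUDHL6 CD84 came first at 8.5 ± 0.463, followed by CD48 at 1.42 ± 0.287 and LY9 at 0.341 ± 0.0235. In Oci-Ly18 SLAMF6 came first at 12.6 ± 1.22, followed by CD84 at 1.60 ± 0.169 and CD48 at 0.320 ± 0.108. SLAMF1 and SLAMF7 were at 0.174 CPM per kb or below in all 4 lines, as the plot of DMSO levels shows.

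**Figure D1:**
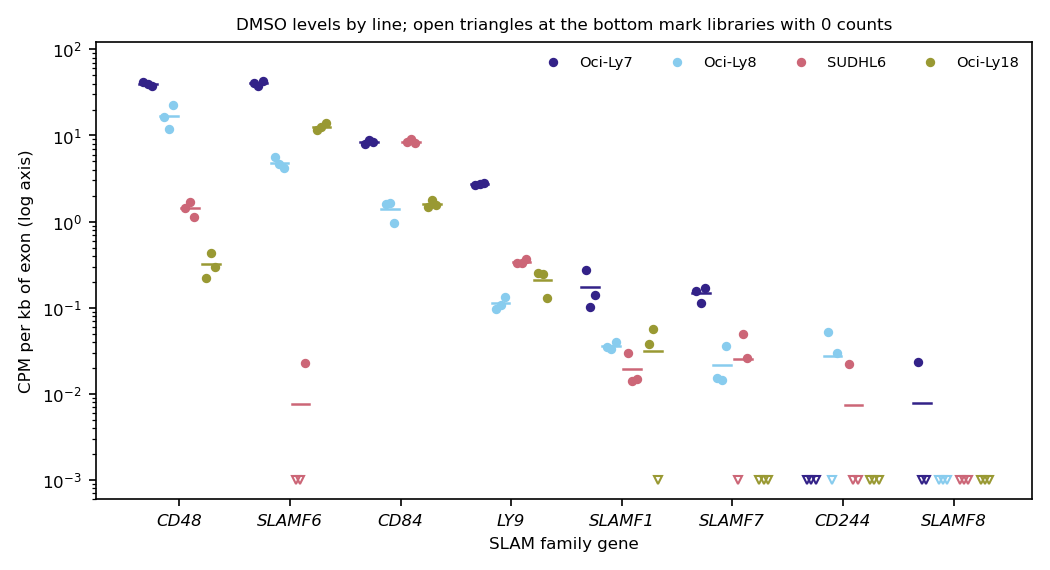
Level of each SLAM family gene in the 12 DMSO libraries, as CPM per kb of exon on a log axis, colored by line; short bars are means of 3 libraries and open triangles are libraries with 0 counts. CD48 and SLAMF6 reach about 40 CPM per kb in Oci-Ly7, while SLAMF6 has 1 count in all in SUDHL6 DMSO.

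SLAMF8, a family member of myeloid cells without the tyrosine motifs, had 2 counts in 48 libraries. CD244 had 20 counts spread over 15 libraries, with at most 0.232 CPM in a library. In Oci-Ly7 DMSO, for example, CD244 had 0 counts, which over the 3 libraries of that group allows up to 0.0632 CPM (3 counts, counting error only). No change in SLAMF8 or CD244 was detectable at this depth. SLAMF9, a relative outside the 8 genes, had 1 count in all, and CD2, the other receptor that can bind CD48, had 29.

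For each treatment the effect is the log2 fold change against DMSO with its standard error, and a gene is called where edgeR's quasi-likelihood test gives an adjusted p under 0.05 over all 17749 genes. Averaged over the 4 lines, DOT1Li gave 2 calls higher among the 6 genes that passed the filter (SLAMF1 and CD84) and 0 lower, where 5.08% of all genes were called higher and 5.19% lower. EZH2i gave 1 call higher (SLAMF1) and 0 lower, against 15.7% and 12.5% of all genes. Combo gave 3 calls higher (SLAMF1, SLAMF7 and CD84) and 0 lower, against 25.7% and 20.7%. For the absent lower calls, 0 members had an unadjusted p under 0.05 in that direction in any of the 3 comparisons, and DESeq2 called 0. The median log2 fold change of the 6 genes was 0.21 for DOT1Li, 0.15 for EZH2i and 0.15 for Combo, beside 0.01, 0.03 and 0.08 over all genes. With genes at 0 in a whole group set to the limit that 3 counts give, these medians were 0.27, 0.15 and 0.15. Since the family was chosen with these effects known, nothing is read from the shares.

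By line, the 6 genes gave 24 pairs of gene and line for each treatment. DOT1Li had 1 pair called higher and 0 lower, where 2.9% of all genes were called in Oci-Ly7, 6.26% in Oci-Ly8, 4.86% in SUDHL6 and 6.15% in Oci-Ly18, in either direction. EZH2i had 3 higher and 7 lower, against 13.7%, 17%, 22.7% and 22% in the same order of lines. Combo had 8 higher and 7 lower, against 29.8%, 35%, 39.3% and 35%. A fit with a term for the replicate number called more DOT1Li pairs in both directions and more EZH2i pairs higher. Every comparison with DMSO in a line shares the 3 DMSO libraries of that line. The calls in opposite directions fall on different genes and lines, as the heat map of fold changes shows.

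**Figure D2:**
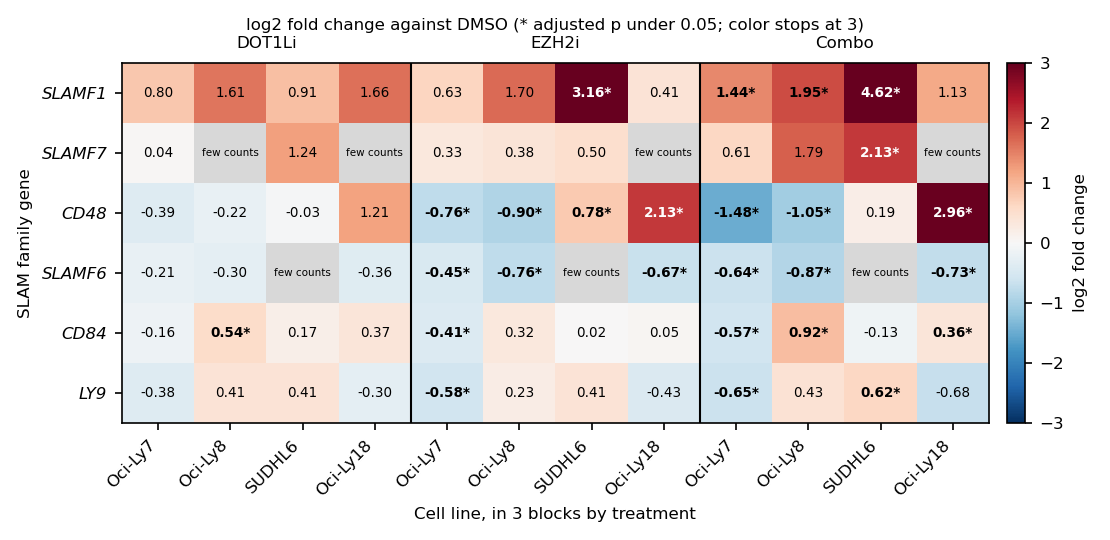
log2 fold change against DMSO of the 6 SLAM family genes that passed the filter (rows) in each line (columns, in blocks for DOT1Li, EZH2i and Combo); red is higher, blue is lower, asterisks mark adjusted p under 0.05 over all genes, and gray cells have a group with at most 3 counts in all. CD48 runs from -1.48 in Oci-Ly7 to 2.96 in Oci-Ly18 under Combo, and SLAMF6 is called lower in 6 cells.

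CD48, the ligand of CD244, fell with EZH2i and Combo in Oci-Ly7 and Oci-Ly8, where it was most abundant, and rose with both in Oci-Ly18, where it was least abundant. In Oci-Ly7 the DMSO libraries had 138, 131 and 123 CPM, the DOT1Li libraries 119, 91.9 and 87.9, the EZH2i libraries 84.9, 72.7 and 74.0, and the Combo libraries 58.0, 37.6 and 44.2. All 9 treated libraries lay below the 3 DMSO libraries. The effects were -0.39 ± 0.18 for DOT1Li, which did not pass the test, -0.76 ± 0.18 for EZH2i and -1.48 ± 0.19 for Combo, which passed.

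In Oci-Ly8 CD48 stood at 54.0, 38.8 and 74.2 CPM in DMSO, 39.2, 36.3 and 74.8 with DOT1Li, 32.2, 28.2 and 28.5 under EZH2i, and 26.7, 27.7 and 26.1 under Combo. The highest DMSO and DOT1Li values come from the pair of libraries that stand apart. CD48 fell with EZH2i by 0.90 ± 0.20 and with Combo by 1.05 ± 0.21 on the log2 scale. Without that pair the effects were -0.64 ± 0.17 and -0.79 ± 0.17 and still passed.

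In Oci-Ly18 CD48 was near the bottom of its range, with 0.734, 1.43 and 0.981 CPM in DMSO. It reached 2.31, 2.70 and 2.32 CPM with DOT1Li, 4.23, 5.78 and 3.85 under EZH2i, and 7.04, 10.8 and 7.19 under Combo. The 4 groups did not overlap in the order DMSO, DOT1Li, EZH2i, Combo. The effect of 1.21 ± 0.54 for DOT1Li did not pass, and CD48 rose with EZH2i (2.13 ± 0.47) and Combo (2.96 ± 0.42).

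In SUDHL6 CD48 had 4.77, 5.54 and 3.67 CPM in DMSO, 6, 4.496 and 3.36 with DOT1Li, 8.62, 8.80 and 6.58 under EZH2i, and 6.69, 4.80 and 4.46 under Combo. EZH2i libraries lay above all DMSO libraries, and the rise of 0.78 ± 0.29 passed. That call was lost when any of 8 of the 12 SUDHL6 libraries was left out (DMSO replicates 1, 2 and 3, DOT1Li replicate 2, EZH2i replicates 1 and 2, Combo replicates 2 and 3), with effects from 0.63 (without DMSO replicate 3) to 0.93 (without DMSO replicate 2). Combo gave 0.19 ± 0.31 and did not pass. The effect on CD48 differed between the 4 lines for EZH2i (edgeR F test, adjusted p = 6.31e-06) and for Combo (adjusted p = 2.12e-09), but not past the threshold for DOT1Li (adjusted p = 0.317). As an average over lines CD48 was called for no treatment (0.14 ± 0.17, 0.31 ± 0.16 and 0.16 ± 0.16 for DOT1Li, EZH2i and Combo), but without the Oci-Ly8 pair that stands apart the EZH2i average was 0.37 ± 0.13 and passed. The tests of differences between lines draw on the same libraries that were known when the family was chosen.

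**Figure D3:**
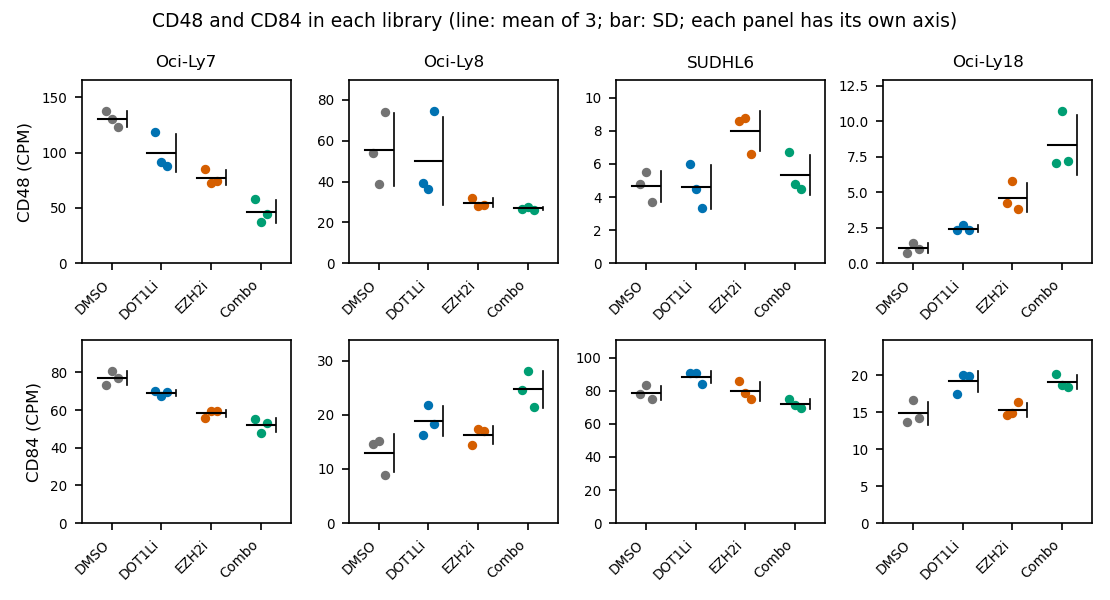
CD48 (top) and CD84 (bottom) in CPM in each library by treatment, with 1 panel per line and its own axis from 0; points are libraries, horizontal lines are means of 3 and vertical bars are SDs. CD48 goes down from DMSO to Combo in Oci-Ly7 (131 to 46.6 CPM) and up in Oci-Ly18 (1.05 to 8.33 CPM).

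A long noncoding RNA without a symbol in the table, ENSG00000228863, overlaps CD48 by its coordinates (chromosome 1, 160670778 to 160699761). In Oci-Ly7 it had 7, 11 and 2 counts in DMSO, 10, 15 and 26 with DOT1Li, 12, 29 and 18 under EZH2i, and 34, 35 and 31 under Combo. It was called higher there with EZH2i (1.51 ± 0.49) and Combo (2.23 ± 0.46), while CD48 was called lower. In the other 3 lines it had at most 4 counts in a library. It was chosen for mention after its values were seen, and the strand setting of the counting is not given in the sources used here, so reads of the pair may not be fully separated.

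CD84, a self-binding receptor known on B cells, was most abundant in SUDHL6 and Oci-Ly7, and it fell in Oci-Ly7 with EZH2i and Combo. In Oci-Ly7 the DMSO libraries had 73.4, 80.9 and 77.0 CPM, the DOT1Li libraries 70.1, 67.2 and 69.5, the EZH2i libraries 55.8, 59.5 and 59.3, and the Combo libraries 55.2, 47.9 and 53.1. The falls were -0.41 ± 0.09 with EZH2i and -0.57 ± 0.10 with Combo, and the DOT1Li effect of -0.16 ± 0.09 did not pass. In SUDHL6 the DMSO libraries had 77.7, 83.4 and 75.0 CPM, the DOT1Li libraries 90.6, 90.6 and 84.0, the EZH2i libraries 86.1, 78.4 and 74.8, and the Combo libraries 75.2, 71.1 and 69.6. No treatment passed against DMSO in SUDHL6, with effects from -0.13 ± 0.09 for Combo to 0.17 ± 0.09 for DOT1Li.

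CD84 had a lower level in the other lines, and there it rose with Combo. In Oci-Ly8 it had 14.7, 15.1 and 8.92 CPM in DMSO, 16.3, 21.9 and 18.3 with DOT1Li, 14.4, 17.4 and 17.1 under EZH2i, and 24.5, 28.2 and 21.4 under Combo. The lowest DMSO value is from the replicate 3 library that stands apart. The rise with Combo was 0.92 ± 0.12, and 0.72 ± 0.11 without the pair that stands apart, which passed both ways. The DOT1Li effect of 0.54 ± 0.13 passed, but it was 0.36 ± 0.12 without that pair and 0.38 without DOT1Li replicate 2, and neither passed. It was 0.55 and did not pass when the line was fitted alone.

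In Oci-Ly18 CD84 had 13.7, 16.6 and 14.2 CPM in DMSO, 17.5, 20.1 and 19.96 with DOT1Li, 14.7, 14.97 and 16.4 under EZH2i, and 20.1, 18.8 and 18.4 under Combo. DOT1Li and Combo libraries lay above all DMSO libraries. Combo gave 0.36 ± 0.12, which passed but was lost without DMSO replicate 1 (0.31), DMSO replicate 3 (0.33) or Combo replicate 1 (0.32). DOT1Li gave 0.37 ± 0.12, which did not pass by edgeR. For DOT1Li in Oci-Ly18 edgeR called 0 of the 6 genes, while DESeq2 called 2 higher, and which 2 is not given. As an average over lines CD84 was called higher with DOT1Li (0.23 ± 0.05) and Combo (0.15 ± 0.05). Without the pair of libraries that stands apart the DOT1Li average was 0.18 ± 0.05, which passed, and the Combo average was 0.10 ± 0.04, which did not. The Combo average was also 0.10 without Oci-Ly8 DMSO replicate 3 alone and 0.12 without Oci-Ly8 Combo replicate 2, and passed in neither case. The effect on CD84 differed between lines for DOT1Li (adjusted p = 0.0088), EZH2i (adjusted p = 0.00163) and Combo (adjusted p = 1.36e-10) by edgeR's F test.

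SLAMF6, a self-binding receptor of T, B and natural killer cells, fell with EZH2i and Combo in Oci-Ly7, Oci-Ly8 and Oci-Ly18. In Oci-Ly7 it had 112, 104 and 117 CPM in DMSO, 109, 84.9 and 93.3 with DOT1Li, 86.2, 77.9 and 80.0 under EZH2i, and 80.1, 66.8 and 66.6 under Combo. In Oci-Ly18 it had 31.5, 34.1 and 38.1 CPM in DMSO, 28.3, 27.3 and 25.4 with DOT1Li, 21.4, 22.8 and 21.1 under EZH2i, and 21.7, 19.2 and 21.7 under Combo. In both lines the EZH2i and Combo libraries lay below all DMSO libraries.

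In Oci-Ly8 SLAMF6 had 15.6, 12.8 and 11.6 CPM in DMSO, 11.88, 11.98 and 6.66 with DOT1Li, 9.40, 7.66 and 6.71 under EZH2i, and 5.40, 8.71 and 7.73 under Combo. The lowest values in DMSO and DOT1Li are those of the libraries that stand apart. EZH2i effects were -0.45 ± 0.11 in Oci-Ly7, -0.76 ± 0.16 in Oci-Ly8 and -0.67 ± 0.13 in Oci-Ly18, and Combo effects were -0.64 ± 0.11, -0.87 ± 0.16 and -0.73 ± 0.13, all of which passed. Without the pair that stands apart the Oci-Ly8 effects were -0.85 ± 0.16 and -0.96 ± 0.16, which passed. Fitted alone, Oci-Ly8 gave -0.74 for EZH2i and did not pass. DOT1Li effects of -0.21 ± 0.11, -0.30 ± 0.16 and -0.36 ± 0.13 did not pass in any of the 3 lines.

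SUDHL6 had at most 3 counts of SLAMF6 in any library, and its Combo libraries had 0, which allows up to 0.0588 CPM over the group. With that line in the average, no treatment was called. Averaged over the other 3 lines, a setting chosen after seeing the data, SLAMF6 was called lower with DOT1Li (-0.29 ± 0.08), EZH2i (-0.63 ± 0.08) and Combo (-0.75 ± 0.08). A difference between lines in the SLAMF6 effect was not detected for DOT1Li, EZH2i or Combo (edgeR F test, adjusted p = 0.675, 0.3195 and 0.657), tests that include the values fitted for SUDHL6.

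LY9, a self-binding receptor expressed on T and B cells, was highest in Oci-Ly7 and fell there. DMSO libraries had 24.04, 24.9 and 25.9 CPM, DOT1Li libraries 22.3, 16.7 and 18.3, EZH2i libraries 17.5, 15.7 and 16.96, and Combo libraries 17.4, 14.7 and 15.5. All treated libraries lay below the DMSO libraries. The effects were -0.38 ± 0.13 for DOT1Li, which did not pass, -0.58 ± 0.13 for EZH2i and -0.65 ± 0.13 for Combo, which passed.

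In SUDHL6 LY9 moved the other way, from 2.99, 2.98 and 3.36 CPM in DMSO to 4.75, 3.44 and 4.30 with DOT1Li, 4.28, 3.39 and 4.73 under EZH2i, and 4.44, 4.61 and 5.32 under Combo. The treated libraries all lay above the DMSO libraries, and the rise passed for Combo (0.62 ± 0.18). In Oci-Ly8 the group means were 1.03 to 1.37 CPM and in Oci-Ly18 1.15 to 1.9 CPM, with Combo effects of 0.43 ± 0.32 and -0.68 ± 0.28 that did not pass. LY9 effects differed between lines for EZH2i (edgeR F test, adjusted p = 0.00417) and Combo (adjusted p = 2.44e-05), but not past the threshold for DOT1Li (adjusted p = 0.0788). As an average over lines LY9 was called for no treatment (0.03 ± 0.12, -0.09 ± 0.12 and -0.07 ± 0.12 for DOT1Li, EZH2i and Combo).

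SLAMF1, the founding member and a self-binding receptor of activated lymphocytes, was low in DMSO and was called higher in the average of every treatment. In SUDHL6 it had 2, 1 and 1 counts in DMSO (0.127, 0.0596 and 0.0633 CPM), 3, 4 and 0 counts with DOT1Li, 17, 14 and 14 counts with EZH2i (0.910, 0.708 and 0.808 CPM), and 54, 26 and 35 counts with Combo (2.96, 1.58 and 2.14 CPM). The EZH2i libraries lay above DMSO and DOT1Li, and the Combo libraries above EZH2i. The rise was 3.16 ± 0.62 with EZH2i and 4.62 ± 0.52 with Combo, while DOT1Li gave 0.91 ± 0.90 and did not pass.

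In Oci-Ly7 SLAMF1 had 1.18, 0.439 and 0.606 CPM in DMSO, 1.37, 0.973 and 1.46 with DOT1Li, 0.971, 1.07 and 1.34 under EZH2i, and 1.35, 1.99 and 2.60 under Combo. Combo libraries lay above DMSO, and the rise of 1.44 ± 0.35 passed. In Oci-Ly8 it had 2 counts in each DMSO library, 7, 7 and 0 with DOT1Li, 5, 6 and 12 under EZH2i, and 7, 5 and 11 under Combo. Combo gave 1.95 ± 0.65, which passed, 2.01 ± 0.72 without the pair that stands apart, which also passed, and 1.60 without Combo replicate 3, which did not. In Oci-Ly18 it had at most 9 counts in a library, and no effect passed there.

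The averages for SLAMF1 were 1.25 ± 0.36 for DOT1Li, 1.48 ± 0.34 for EZH2i and 2.29 ± 0.31 for Combo. Without the Oci-Ly8 pair that stands apart they were 1.33 ± 0.36, 1.49 ± 0.35 and 2.30 ± 0.31 and passed. The DOT1Li call was lost without SUDHL6 DOT1Li replicate 1 (1.18) or replicate 2 (1.11). Averaged without SUDHL6, the EZH2i effect was 0.91 ± 0.39 and did not pass, while DOT1Li (1.36 ± 0.36) and Combo (1.51 ± 0.35) did. The Combo effect on SLAMF1 differed between lines (edgeR F test, adjusted p = 0.00195), and the EZH2i effect missed the threshold (adjusted p = 0.0526).

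SLAMF7, a self-binding receptor abundant on plasma cells and the target of the antibody elotuzumab, stayed at a low level. In Oci-Ly7 it had 0.764, 0.549 and 0.809 CPM in DMSO and 1.41, 1.16 and 0.650 CPM with Combo, and the groups overlapped. In SUDHL6 it had 0, 4 and 2 counts in DMSO and 7, 7 and 15 counts with Combo. In Oci-Ly8 it had 1, 1 and 2 counts in DMSO and 5, 4 and 5 with Combo. In Oci-Ly18 it had 2 counts in 1 Combo library and 0 in the other 11 libraries, which allows up to 0.0767 CPM in DMSO and gives no fold change.

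By line, SLAMF7 was called higher with Combo in SUDHL6 (2.13 ± 0.65). That call was lost without SUDHL6 DMSO replicate 1 (1.58) or Combo replicate 3 (1.63). The Oci-Ly8 effect of 1.79 ± 0.82 and the Oci-Ly7 effect of 0.61 ± 0.41 did not pass. The called Combo average of 1.79 ± 0.61 includes a fitted value for Oci-Ly18 that rests on those 2 counts. It was 1.91 ± 0.64 and passed without the Oci-Ly8 pair that stands apart. Without Oci-Ly18 Combo replicate 1 it was 1.13, and without SUDHL6 1.68 ± 0.75, and neither passed. PRDM1, which encodes the plasma cell regulator BLIMP1, went from 2.47 ± 0.448 to 34.7 ± 9.61 CPM in Oci-Ly7 under Combo (SD, n = 3), a log2 rise of 3.81 ± 0.27. In SUDHL6, where SLAMF7 was called, PRDM1 went from 5.48 ± 0.799 to 9.05 ± 2.22 CPM, a log2 rise of 0.72 ± 0.26.

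**Figure D4:**
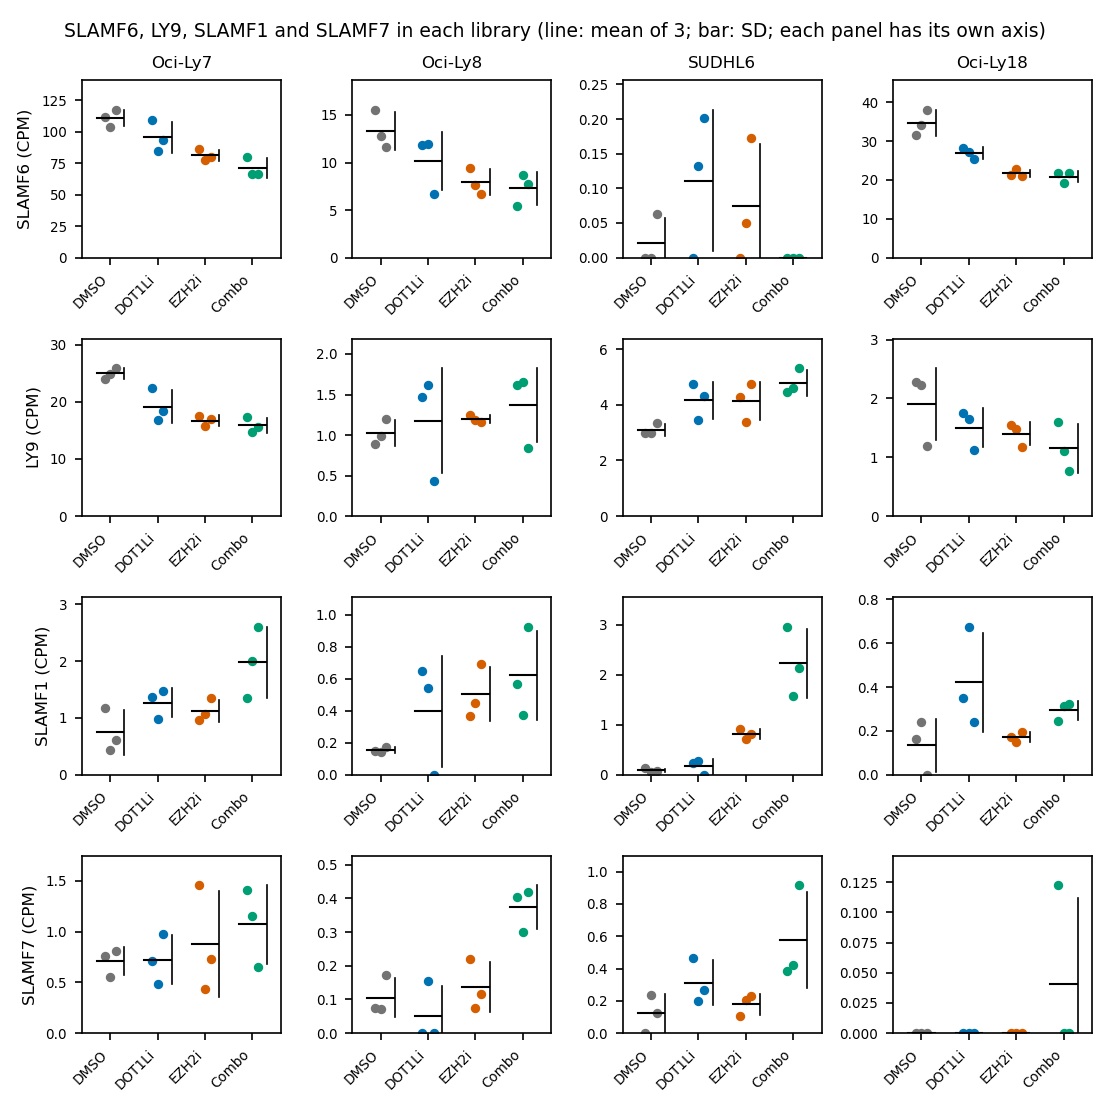
SLAMF6, LY9, SLAMF1 and SLAMF7 (rows) in CPM in each library by treatment and line (columns); points are libraries, horizontal lines are means of 3, vertical bars are SDs stopped at 0, and each panel has its own axis from 0. SLAMF6 is lower with EZH2i and Combo in Oci-Ly7, Oci-Ly8 and Oci-Ly18, and SLAMF1 is highest with Combo in SUDHL6 (2.23 CPM).

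The combination was then compared with each inhibitor alone, in contrasts that do not use DMSO but do use treated libraries known when the family was chosen. Adjusted p-values are from edgeR's quasi-likelihood test over all genes. Against DOT1Li, 3 of the 6 genes were called in the average, where 35.2% of all genes were called. SLAMF1 was higher (1.04 ± 0.26, adjusted p = 0.00125), SLAMF7 was higher (1.60 ± 0.60, adjusted p = 0.035), and SLAMF6 was lower (-1.31 ± 0.42, adjusted p = 0.0116). Averaged without SUDHL6, SLAMF6 was -0.46 ± 0.08 (adjusted p = 2.245e-05), SLAMF1 was 0.15 ± 0.30 (adjusted p = 0.809) and SLAMF7 was 1.83 ± 0.77 (adjusted p = 0.06935). SLAMF6 was -1.15 (adjusted p = 0.0865) without SUDHL6 DOT1Li replicate 3. The SLAMF7 call was lost in 5 of 48 fits that each left out 1 library (Oci-Ly8 DOT1Li replicate 1, Oci-Ly18 DOT1Li replicates 1, 2 and 3, Oci-Ly18 Combo replicate 1). It was 0.94 (adjusted p = 0.9999) without the last of these.

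By line, Combo against DOT1Li gave 3 pairs higher and 7 lower of 24, where 18.1% of all genes were called in Oci-Ly7, 19.5% in Oci-Ly8, 25.6% in SUDHL6 and 21.6% in Oci-Ly18. SLAMF6 was lower in Oci-Ly7 (-0.43 ± 0.11, adjusted p = 0.00434), Oci-Ly8 (-0.57 ± 0.18, adjusted p = 0.0179) and Oci-Ly18 (-0.37 ± 0.13, adjusted p = 0.0343). CD48 was lower in Oci-Ly7 (-1.09 ± 0.19, adjusted p = 4.655e-05) and Oci-Ly8 (-0.83 ± 0.21, adjusted p = 0.00514) and higher in Oci-Ly18 (1.75 ± 0.35, adjusted p = 0.000247). CD84 was lower in Oci-Ly7 (-0.40 ± 0.10, adjusted p = 0.00147) and SUDHL6 (-0.30 ± 0.09, adjusted p = 0.015) and higher in Oci-Ly8 (0.38 ± 0.12, adjusted p = 0.0178). SLAMF1 was higher in SUDHL6 (3.71 ± 0.47, adjusted p = 4.366e-08). Without the pair of Oci-Ly8 libraries that stands apart, the CD48 call in Oci-Ly8 was lost (-0.49 ± 0.18, adjusted p = 0.05207). The SLAMF6 and CD84 calls in that line held (-0.71 ± 0.17, adjusted p = 0.002019, and 0.36 ± 0.11, adjusted p = 0.01129). So did the averages of SLAMF1 (0.97 ± 0.26, adjusted p = 0.001568), SLAMF6 (-1.35 ± 0.42, adjusted p = 0.00827) and SLAMF7 (1.55 ± 0.61, adjusted p = 0.04011).

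Against EZH2i, 2 of the 6 genes were called in the average, where 25% of all genes were called. SLAMF1 was higher by 0.81 ± 0.25 (adjusted p = 0.0112), and by 0.59 ± 0.31 without SUDHL6 (adjusted p = 0.176). CD84 was higher by 0.15 ± 0.05 (adjusted p = 0.028), a call that was lost in 9 of the 48 fits that each left out 1 library, with a lowest value of 0.12 and an adjusted p of at most 0.091, both without Oci-Ly8 Combo replicate 2. The others were Oci-Ly7 EZH2i replicate 1, Oci-Ly7 Combo replicate 1, Oci-Ly8 EZH2i replicate 1, SUDHL6 EZH2i replicate 3, SUDHL6 Combo replicate 1, Oci-Ly18 EZH2i replicates 1 and 2, and Oci-Ly18 Combo replicate 1. By line there were 2 pairs higher and 1 lower of 24, where 8.83% of all genes were called in Oci-Ly7, 17.4% in Oci-Ly8, 7.12% in SUDHL6 and 12.8% in Oci-Ly18. SLAMF1 was higher in SUDHL6 (1.46 ± 0.33, adjusted p = 0.00298), CD84 was higher in Oci-Ly8 (0.60 ± 0.11, adjusted p = 0.000111) and CD48 was lower in Oci-Ly7 (-0.73 ± 0.19, adjusted p = 0.0103). DESeq2 called 0 of the 6 genes in SUDHL6, so it did not make the SLAMF1 call there. In Oci-Ly18 it called 2 higher, where edgeR called 0. With 1 library left out, the pairs higher ran from 1 to 3. The pairs lower ran from 0 to 1, so the CD48 call was lost in at least 1 fit. Without the Oci-Ly8 pair these calls of SLAMF1 and CD84 in the average held (0.81 ± 0.24, adjusted p = 0.0067, and 0.15 ± 0.04, adjusted p = 0.004213), and SLAMF7 passed as well (1.496 ± 0.59, adjusted p = 0.04618). CD84 in Oci-Ly8 was 0.59 ± 0.09 (adjusted p = 2.197e-06). SLAMF6 had intervals for Combo against EZH2i of -0.42 to 0.04 in Oci-Ly7, -0.46 to 0.24 in Oci-Ly8 and -0.33 to 0.21 in Oci-Ly18 (95%).

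Departure from additive effects was tested by taking the DOT1Li and EZH2i log2 effects from that of Combo. Of the 6 genes 0 were called in the average by edgeR, where 0.0507% of all genes were called, and DESeq2 called 0. SLAMF6 had an unadjusted p under 0.05 (-1.21 ± 0.54, adjusted p = 0.625), and it rests on a SUDHL6 term of -5.34 ± 2.16 fitted to groups of 0 to 5 counts. The CD48 departure was -0.30 ± 0.21 (adjusted p = 0.8925) and the SLAMF1 departure was -0.44 ± 0.42 (adjusted p = 0.982).

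Over the 6 genes, a difference between lines was called for 1 gene with DOT1Li, 3 with EZH2i and 4 with Combo, where 5.14%, 24% and 43.8% of all genes were called. CD84 was called for every treatment, CD48 and LY9 for EZH2i and Combo, and SLAMF1 for Combo. Without the pair of Oci-Ly8 libraries that stands apart, the counts were 2, 4 and 4, with LY9 added for DOT1Li (adjusted p = 0.01876) and SLAMF1 for EZH2i (adjusted p = 0.03501). The shares of all genes without that pair are not given.

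Neighbouring genes were read for comparison. Among 24 other protein-coding genes within 250 kb of a member, 18 passed the filter. In the average DOT1Li gave 1 call higher and 2 lower, EZH2i gave 1 and 3, and Combo gave 3 and 3, beside the shares of all genes given above. PIGM, an enzyme of the lipid anchor that proteins such as CD48 carry, was higher with DOT1Li (0.18 ± 0.06), EZH2i (0.44 ± 0.05) and Combo (0.61 ± 0.05), and Combo was called higher in all 4 lines. DCAF8 (0.25 ± 0.05) and TSTD1 (1.21 ± 0.44) were also higher with Combo, the second with a fitted Oci-Ly8 term of 3.38 ± 1.69 that did not pass by itself. TAGLN2, an actin-binding protein, was lower with DOT1Li (-0.16 ± 0.04), EZH2i (-0.14 ± 0.04) and Combo (-0.40 ± 0.04). PFDN2, a prefoldin subunit, was lower with DOT1Li (-0.13 ± 0.03), EZH2i (-0.10 ± 0.03) and Combo (-0.25 ± 0.03), and ARHGAP30 with EZH2i (-0.14 ± 0.03) and Combo (-0.13 ± 0.03). The median over the 18 genes was 0.03 for Combo, and 0.06 with genes at 0 in a whole group set to their limit, beside 0.08 over all genes.

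**Figure D5:**
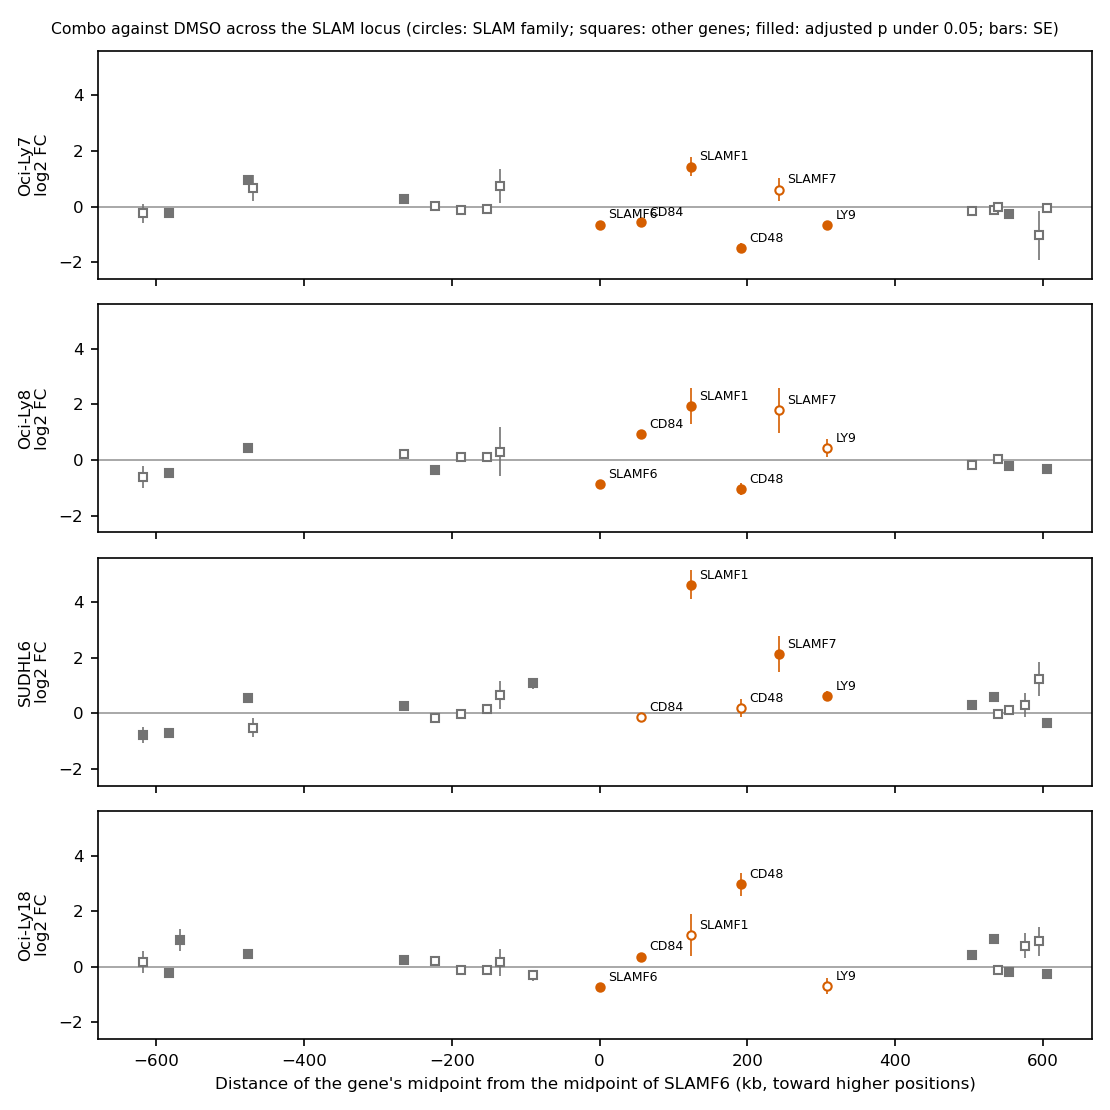
Combo effect against DMSO (log2 fold change, bars are SE) along the SLAM locus in each line, against the distance of the gene's midpoint from that of SLAMF6 in kb; orange circles are SLAM family genes, gray squares are other protein-coding genes, filled symbols have adjusted p under 0.05, and genes with an SE above 1 are left out. In Oci-Ly7 CD48 is at -1.48 between SLAMF1 at 1.44 and SLAMF7 at 0.61, and in Oci-Ly18 it is the highest point at 2.96.

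Adaptors, kinases and phosphatases that work with SLAM tails, with other ligands of the pathway, formed a list of 33 genes, of which 29 passed the filter. In the average DOT1Li gave 2 higher and 7 lower, where 5.08% and 5.19% of all genes were called in these directions. EZH2i gave 9 and 7, against 15.7% and 12.5%, and Combo gave 10 and 14, against 25.7% and 20.7%. The median was 0.00, -0.05 and -0.11, and 0.02, -0.05 and -0.11 with genes at 0 in a whole group set to their limit, beside 0.01, 0.03 and 0.08 over all genes. With 1 library left out, the Combo calls of this list ran from 9 to 10 higher and from 11 to 15 lower. DESeq2 called 10 higher and 12 lower with Combo. SH2D1A (SAP) had 68 counts in Oci-Ly7 DMSO and 191 in Combo, 15 and 46 in Oci-Ly18, 0 and 5 in Oci-Ly8, and 0 and 1 in SUDHL6. It rose with Combo in Oci-Ly7 (1.41 ± 0.29) and Oci-Ly18 (1.41 ± 0.47), and its called average of 2.15 ± 0.78 includes fitted values for the lines at 0. SH2D1B (EAT-2) had 2 counts in all.

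Of the effectors, PRKCQ, the kinase PKC-theta, was higher with EZH2i (1.17 ± 0.06) and Combo (0.99 ± 0.07). FYN, the kinase that SAP recruits, was higher in the average with EZH2i (0.62 ± 0.07) and Combo (0.59 ± 0.07), and by line its Combo effect was 2.55 ± 0.24 in SUDHL6 and between -0.22 and 0.14 in the other 3 lines, where it did not pass. PTPN6, the phosphatase SHP-1, was higher with DOT1Li (0.42 ± 0.08) and Combo (0.66 ± 0.08), but was called lower in Oci-Ly7 with Combo (-0.82 ± 0.14). CD58, the other ligand of CD2, was higher in the average with EZH2i (0.48 ± 0.07) and Combo (0.47 ± 0.07). Its group means in DMSO and Combo were 4.88 and 4.08 CPM in Oci-Ly7, so it was not higher there with Combo. They were 3.71 and 8.40 CPM in Oci-Ly8, 22.3 and 30.8 in SUDHL6, and 5.43 and 7.46 in Oci-Ly18. RASA1, a Ras GTPase-activating protein, was higher with EZH2i (0.22 ± 0.06) and Combo (0.33 ± 0.06), and PIK3R1, a PI3 kinase subunit, with EZH2i (0.23 ± 0.06).

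LCK, a Src family kinase, was higher with DOT1Li (0.23 ± 0.05) and lower with EZH2i (-0.54 ± 0.06). Lower calls with Combo included the adaptor GRB2 (-0.34 ± 0.03), the PI3 kinase subunit PIK3CD (-0.40 ± 0.04), the kinase CSK (-0.33 ± 0.03), the adaptor NCK1 (-0.35 ± 0.04) and the phospholipase PLCG2 (-0.46 ± 0.06). Lower with EZH2i were also PIK3CD (-0.29 ± 0.04), CSK (-0.24 ± 0.03), the phosphatase SHIP (INPP5D, -0.24 ± 0.04) and the autophagy protein Beclin (BECN1, -0.14 ± 0.03). Lower with DOT1Li were GRB2 (-0.20 ± 0.03), the kinase LYN (-0.30 ± 0.05), NCK1 (-0.21 ± 0.04), PLCG2 (-0.24 ± 0.06) and NFKB1 (-0.16 ± 0.04).

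Among themselves the 6 genes did not follow 1 pattern. Over the 16 group means of log2 CPM, each line centred on its own mean, Pearson correlations between members ran from -0.56 for SLAMF1 and SLAMF6 to 0.63 for SLAMF1 and SLAMF7. The points share libraries and depth, and these values are descriptions. The protein-coding genes most like each member over the same 16 means were LRRC37A3 (0.968), RYR3 (0.936) and SLC14A2 (0.934) for SLAMF1, and STYXL1 (0.896), ARL3 (0.890) and UBA6 (0.878) for SLAMF6. For CD48 they were PTPN22 (0.957), ABHD8 (0.944) and CCDC32 (0.927), and for CD84 KCNK12 (0.889), DMC1 (0.880) and INTS2 (0.878). For LY9 they were FAM107B (0.919), MYBL1 (0.896) and CBLL1 (0.885), and for SLAMF7 KIAA0319 (0.941) and FAM234A (0.911). The likeness of SLAMF1 and SLAMF7 rests on low counts. All SLAMF6 correlations include the SUDHL6 groups, which held 0 to 5 counts of SLAMF6.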

How the data were processed

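RNA from 48 libraries was sequenced from poly(A) stranded xGen libraries, per the labels' protocols. The authors deposited raw read counts per gene without normalization. STAR, DESeq2 and the GRCh38 (hg38) build are named in the submitters' processing notes. Versions, roles, the program that counted, its strand setting and the doses were not given in the sources used here.

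The tests used edgeR 4.0.16 (R 4.3.3): filterByExpr on the 16 groups (17749 genes kept), TMM scaling, 16 group means with 32 residual degrees of freedom, robust quasi-likelihood F tests, and Benjamini-Hochberg adjustment over all genes (called under 0.05). The main fit has no term for the replicate number. Averages weight the 4 lines equally. A standard error is the size of the log2 effect divided by the root of its F. CPM uses TMM-scaled totals. Exon lengths are from GENCODE 29. A group at 0 allows up to 3 counts, and such limits and the depth of 5174269 to 18845074 counts bear on counting error only. The code was tested on simulated counts.

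The members and lists (33 pathway genes, 24 neighbours, cell type markers) were chosen with earlier results of these data known. Named were all members, up to 5 called genes of a list in each direction with the smallest p per averaged comparison with DMSO, DOT1L, EZH2, PRDM1, and 3 like genes per member, of which 1 is not reported here. Alternatives were DESeq2 1.42.0, its size factors, no filter, a replicate block, each line alone, each library left out, the pair that stands apart left out, and averages over fewer lines.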

Additional observations from a re-analysis of the deposited data

Results flagged for a closer look

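Differences between the 4 lines in at least 1 treatment effect were found for 4 of the 6 tested genes by edgeR's F test. The p-values carry Benjamini-Hochberg adjustment over all genes. By treatment there was 1 gene with DOT1Li, 3 with EZH2i and 4 with Combo, where 5.14%, 24% and 43.8% of all genes were called. The share of all genes that differed for at least 1 treatment is not given, and it cannot be below 43.8%. The 4 of 6 genes are therefore not read as a result about the family. For CD48 the EZH2i effects were -0.76, -0.90, 0.78 and 2.13 on the log2 scale in Oci-Ly7 and Oci-Ly8 and then SUDHL6 and Oci-Ly18 (adjusted p = 6.31e-06), and the Combo effects were -1.48, -1.05, 0.19 and 2.96 (adjusted p = 2.12e-09). For CD84, in the same order, the DOT1Li effects were -0.16, 0.54, 0.17 and 0.37 (adjusted p = 0.0088), the EZH2i effects -0.41, 0.32, 0.02 and 0.05 (adjusted p = 0.00163), and the Combo effects -0.57, 0.92, -0.13 and 0.36 (adjusted p = 1.36e-10). For LY9 the EZH2i effects were -0.58, 0.23, 0.41 and -0.43 (adjusted p = 0.00417) and the Combo effects -0.65, 0.43, 0.62 and -0.68 (adjusted p = 2.44e-05). For SLAMF1 the Combo effects were 1.44, 1.95, 4.62 and 1.13 (adjusted p = 0.00195). The family was chosen with these libraries known, so the tests are not independent of that choice.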

How the results depend on the processing

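The tallies of called single genes cover effects against DMSO and the averages of Combo against each inhibitor. Calls of Combo against an inhibitor within a line are not counted. Among those, the CD48 call against DOT1Li in Oci-Ly8 was lost without the pair that stands apart. The SLAMF1 call against EZH2i in SUDHL6 was not made by DESeq2. Of the values counted, 242 kept direction and side of the threshold under the other settings and 10 lost the call. With 1 library left out, 805 kept both and 35 lost the call. No value reversed. The counts below moved, and the cause was not tested. The share of all genes called under each other setting is not given. A change in these counts is therefore not read as a result about the members or neighbours.

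With DOT1Li, the pairs of member and line called higher (1) became 2 with DESeq2 size factors, 3 without the filter on low counts, 2 with each line fitted alone and 3 with DESeq2. The pairs called lower (0) became 2 without the filter, 2 without both Oci-Ly8 replicate 3 libraries and 2 with each line fitted alone. The neighbours called higher (1) became 0 without the filter, 2 without both Oci-Ly8 libraries and 2 with DESeq2. The members whose effect differed between lines (1) became 2 without the filter and 2 without both Oci-Ly8 libraries. The members called lower in the average (0) became 1 without SUDHL6 for DOT1Li, EZH2i and Combo alike.

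With EZH2i, the members called higher in the average (1) became 2 without the filter, 2 without both Oci-Ly8 libraries, 2 with DESeq2 and 0 without SUDHL6. Averaged over lines with counts, the neighbours called higher (1) became 3 and those lower (3) became 5. For Combo against DOT1Li, the members called higher (2) became 0 without SUDHL6. For Combo against EZH2i, the members called higher (2) became 1 without the filter and 1 without SUDHL6, the pairs higher (2) became 4 without both Oci-Ly8 libraries, and the pairs lower (1) became 2 without the filter and 2 with each line fitted alone.

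Replicate numbers are shared between groups, and the main tests did not take them to pair libraries. Same-numbered libraries had correlations of 0.0195 to 0.415 in their deviations, not all above 0.1, which does not show that pairing is absent. Yet all 48 libraries correlated best with their own number, 12 of 12 in each line, so same-numbered libraries shared part of their spread. The main tests leave this pairing out, and calls near the threshold can depend on it. With the replicate number as a block, the DOT1Li pairs became 2 higher and 3 lower, the DOT1Li neighbours higher 2, the EZH2i pairs higher 5, the EZH2i neighbours lower 5, the pairs higher for Combo against EZH2i 4, and the members whose DOT1Li effect differed between lines 2.

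Over 48 fits that each left out 1 library, the DOT1Li members higher ran from 1 to 2, the DOT1Li pairs higher from 0 to 2 and lower from 0 to 1, and the DOT1Li neighbours higher from 0 to 2. The EZH2i pairs higher ran from 2 to 5 and the EZH2i neighbours lower from 3 to 5. With Combo, members higher ran from 2 to 3, neighbours higher from 2 to 4 and pathway genes lower from 11 to 15. For Combo against DOT1Li, members higher ran from 1 to 2 and lower from 0 to 1, and pairs higher from 2 to 4 and lower from 6 to 7. For Combo against EZH2i, members higher ran from 1 to 3, pairs higher from 1 to 3 and pairs lower from 0 to 1. The members differing between lines for DOT1Li ran from 1 to 2.

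Depth limits SLAMF1, SLAMF7, SLAMF8, CD244 and, in SUDHL6, SLAMF6. Averages of SLAMF7 and SLAMF6 over 4 lines depend on fitted values for groups at 0.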
